A study of Homo sapiens with 22 samples.

Results

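The interferon response genes described here are 41 protein-coding genes chosen by symbol, of 20037 protein-coding genes in the RefSeq gene table used. They were followed in THP-1, a human monocytic leukaemia cell line, infected with a lentivirus that carried either a control hairpin (sh-control) or a hairpin against QKI5 (sh-QKI5). The labels name no interferon treatment for either group, and the series' own design text calls the control cells untreated. Chromatin immunoprecipitation sequencing (ChIP-seq) was done for the histone mark H3K4me3 and for RNA polymerase II (Pol II), and crosslinking immunoprecipitation sequencing (CLIP-seq) for RNA bound by QKI5. Each immunoprecipitation had 2 samples per condition, but the authors deposited 1 peak list per assay and condition that pools both, so no difference below has a replicate check and no p-value is given. For each gene the widest ChIP peak within 1 kb of either end of its RefSeq span was taken, and CLIP peaks were taken by the gene symbol in the list, where RIGI is written DDX58.

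Type I interferons act through a cell surface receptor and the kinases JAK1 and TYK2 to form ISGF3, a complex of transcription factors. ISGF3 binds the interferon-stimulated response element (ISRE), a pair of GAAA half-sites, in the promoters of the genes it switches on. Most of the resulting proteins sense viral nucleic acid, block a step of viral growth or tune the response itself. H3K4me3 marks promoters that are active or poised for use, and a Pol II peak marks where the polymerase dwells. QKI5 is the nuclear form of Quaking, an RNA-binding protein that acts in splicing.

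Most interferon response genes carried both marks in both conditions. H3K4me3 was present at a gene end in both lists for 34 of the 41 genes, against 66.6% of all protein-coding genes. Pol II was present in both lists for 26 of 41, against 57.6%. An H3K4me3 peak stood in the control list alone at 2 of the 36 genes with one in either list (IFI44 and APOL3), against 0.815% of such genes in the genome, and in the knockdown list alone at 0, against 1.15%. A Pol II peak stood in the knockdown list alone at 4 of 31 genes (OAS3, OASL, IFIT5 and ISG20), against 6.25%, and in the control list alone at 1 of 31 (GBP2), against 3.01%. At the 30 starts given by RefSeq's promoter table, H3K4me3 stood in control alone at 1 of 27 genes (IFI44), against 0.45%, and in knockdown alone at 0, against 0.927%. Pol II there stood in control alone at 1 of 23 (IFI16), against 2.35%, and in knockdown alone at 2 of 23 (OAS3 and IFIT5), against 5.62%. These counts rest on few genes and were not tested against the background shares. A peak missing from a list fell below the authors' threshold there, and is not shown to be absent.

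**Figure D1:**
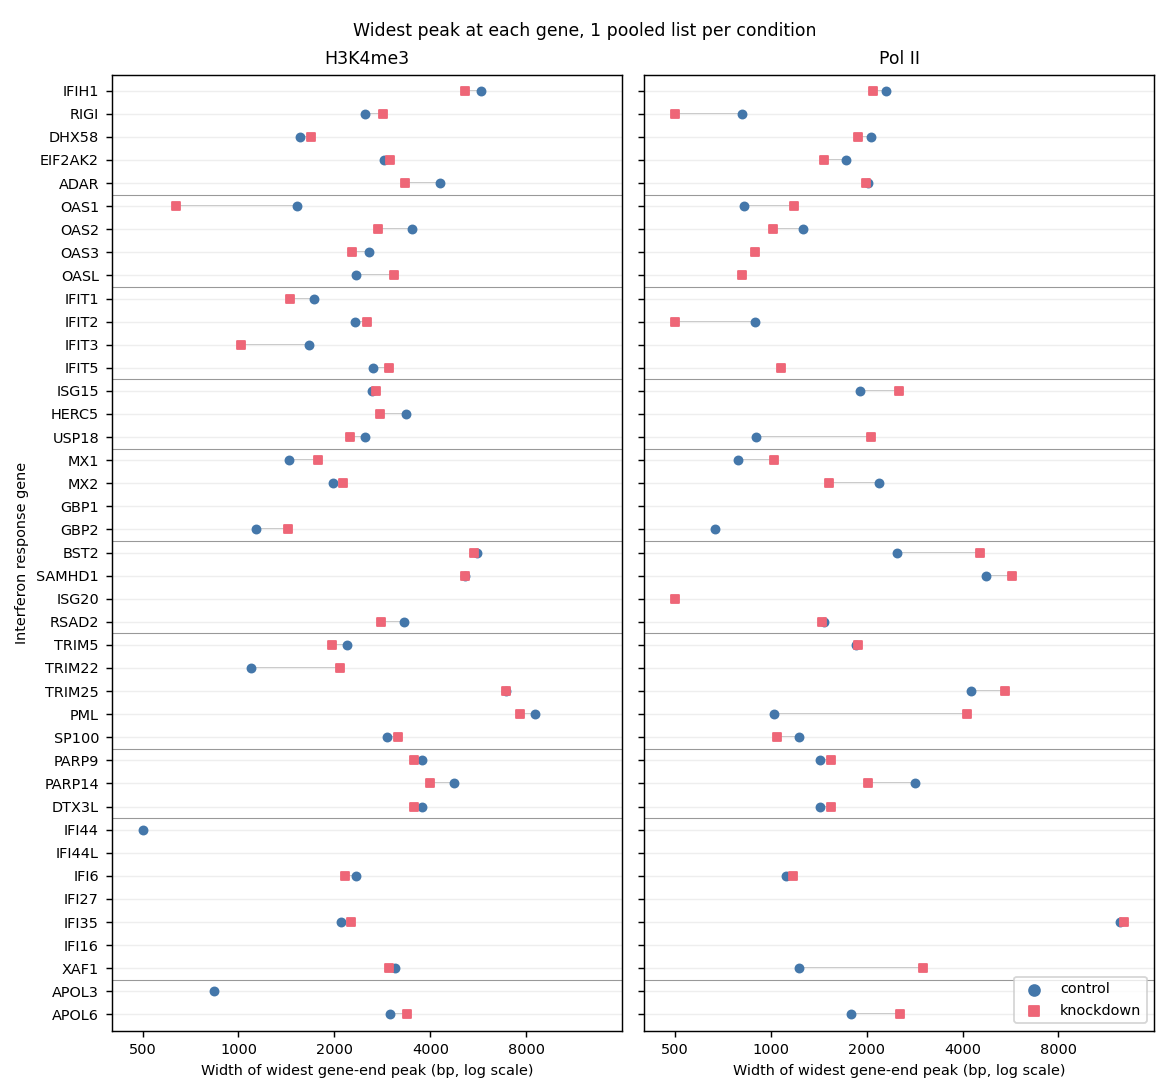
Width in bp, on a log axis, of the widest H3K4me3 peak (left) and Pol II peak (right) at the ends of each of the 41 genes, with control as blue circles, knockdown as red squares and rules between functional groups. Most pairs lie close together, IFI44 and APOL3 have an H3K4me3 point for control alone, and OAS3, OASL, IFIT5 and ISG20 have a Pol II point for knockdown alone.

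The promoters of these genes were rich in the ISRE. RefSeq promoter sequences of 300 bases, from 250 before to 50 after the start, were found for 30 of the 41 genes. A pair of GAAA half-sites with any 2 bases between them, searched on both strands with overlapping matches counted, was present in 19 of the 30 (63.3%), against 503 of all 15842 promoters (3.18%). The longer form, in which a C follows the second half-site, was present in 15 (50%), against 0.776%. The gamma-activated site TTCNNNGAA, an element of the interferon gamma response, was present in 5 (16.7%), against 6.97%, and the TATA box letters TATAAA in 2 (6.67%), against 6.91%. The 19 promoters held 34 ISRE matches, of which 30 lay wholly upstream of the start, at a median position of -105 from it. In BST2 a gamma-activated match at -136 to -128 overlapped the ISRE match at -130 to -121. These genes are known as interferon targets, so the share describes the set and was not tested.

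**Figure D2:**
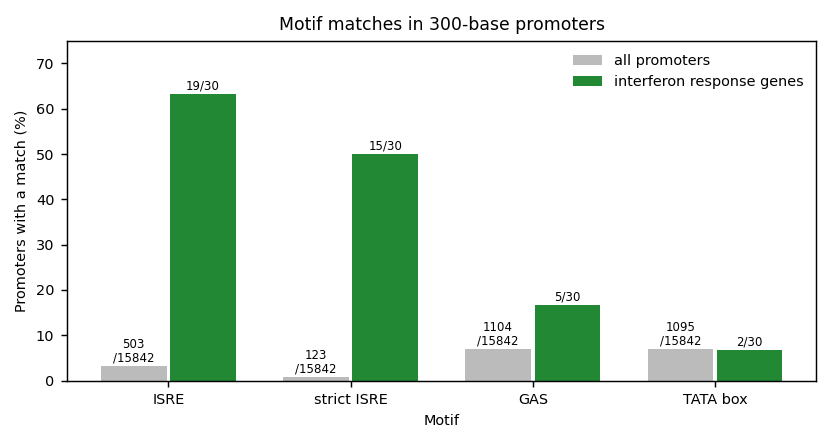
Percent of RefSeq promoters with at least 1 match to the ISRE (GAAA half-sites 2 bases apart), the strict ISRE (the same followed by C), the gamma-activated site (GAS, TTCNNNGAA) and the TATA box (TATAAA), for all promoters in grey and interferon response genes in green. Numbers over the bars are promoters with a match over promoters searched, and the ISRE is present in 19 of 30 interferon response promoters and 503 of 15842 in all.

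The 170 bases before the start are printed for the genes on which the chromatin results turn, 5′ to 3′ on the strand of the gene, from RefSeq (GRCh38.p14). Capitals mark the ISRE match on either strand, so it reads as GAAA or as TTTC half-sites 2 bases apart, and overlapping matches run together. OAS3 and IFIT5 are shown because Pol II was in the knockdown list alone at their starts.
OAS3 (GRCh38.p14, chr12:112938304-112938473, plus strand): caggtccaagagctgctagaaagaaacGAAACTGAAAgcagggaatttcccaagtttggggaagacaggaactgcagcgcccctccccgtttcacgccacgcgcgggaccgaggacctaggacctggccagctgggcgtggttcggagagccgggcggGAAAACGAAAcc
IFIT5 (GRCh38.p14, chr10:89414398-89414567, plus strand): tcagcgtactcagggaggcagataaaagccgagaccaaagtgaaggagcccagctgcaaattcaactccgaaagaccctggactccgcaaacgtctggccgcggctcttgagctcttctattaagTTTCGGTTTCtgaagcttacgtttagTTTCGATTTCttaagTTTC
IFIT1, IFIT3 and HERC5 are shown because they carried H3K4me3 and no Pol II peak in either condition.
IFIT1 (GRCh38.p14, chr10:89392453-89392622, plus strand): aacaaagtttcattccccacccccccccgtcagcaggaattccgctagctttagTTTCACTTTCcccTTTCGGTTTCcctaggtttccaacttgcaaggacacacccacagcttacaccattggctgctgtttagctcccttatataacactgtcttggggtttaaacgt
IFIT3 (GRCh38.p14, chr10:89327827-89327996, plus strand): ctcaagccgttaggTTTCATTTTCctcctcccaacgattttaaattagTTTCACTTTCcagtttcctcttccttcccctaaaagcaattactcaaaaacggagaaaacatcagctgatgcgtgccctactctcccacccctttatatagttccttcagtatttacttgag
HERC5 (GRCh38.p14, chr4:88456949-88457118, plus strand): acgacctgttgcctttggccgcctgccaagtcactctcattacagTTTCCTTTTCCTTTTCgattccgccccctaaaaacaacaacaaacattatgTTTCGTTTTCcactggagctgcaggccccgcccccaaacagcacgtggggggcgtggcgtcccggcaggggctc
IFI44 is shown for its H3K4me3 peak in control alone, and ISG15 as an ISRE promoter with both marks in both conditions.
IFI44 (GRCh38.p14, chr1:78649619-78649788, plus strand): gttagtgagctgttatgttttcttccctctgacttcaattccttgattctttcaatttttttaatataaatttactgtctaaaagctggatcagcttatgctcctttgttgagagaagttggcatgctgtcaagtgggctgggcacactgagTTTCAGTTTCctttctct
ISG15 (GRCh38.p14, chr1:1013327-1013496, plus strand): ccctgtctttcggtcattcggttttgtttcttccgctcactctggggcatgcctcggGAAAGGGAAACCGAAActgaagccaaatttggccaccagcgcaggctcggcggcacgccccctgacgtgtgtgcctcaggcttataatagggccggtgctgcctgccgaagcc
GBP1 and IFI44L are shown because no peak of either mark was listed at their ends.
GBP1 (GRCh38.p14, chr1:89065209-89065378, minus strand): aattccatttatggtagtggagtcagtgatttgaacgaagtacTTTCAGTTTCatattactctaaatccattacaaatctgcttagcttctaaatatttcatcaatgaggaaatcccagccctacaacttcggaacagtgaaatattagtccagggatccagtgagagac
IFI44L (GRCh38.p14, chr1:78620278-78620447, plus strand): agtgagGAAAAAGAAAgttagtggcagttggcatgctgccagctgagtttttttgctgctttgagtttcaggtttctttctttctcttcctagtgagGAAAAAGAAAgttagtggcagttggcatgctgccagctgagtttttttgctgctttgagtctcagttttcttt
RSAD2 is shown because it carried both marks and no match to the ISRE letters. Its window holds 4 copies of GAAACGAAA in lower case, which are GAAA half-sites 1 base apart, starting at -152, -118, -84 and -60.
RSAD2 (GRCh38.p14, chr2:6865715-6865884, plus strand): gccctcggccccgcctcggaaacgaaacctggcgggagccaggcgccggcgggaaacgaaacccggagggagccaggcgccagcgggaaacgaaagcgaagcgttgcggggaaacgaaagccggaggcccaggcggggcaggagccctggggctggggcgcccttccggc
OAS3 and IFIT3 each hold 2 ISRE matches here, and HERC5 holds 3, of which the first pair overlaps. GAAANGAAA, with both strands searched, was present in 10 of the 30 interferon response promoters (33.3%), against 2.80% of all promoters.

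Start-site peaks were counted apart for the 19 genes with an ISRE match and the 11 without one. A start-site peak is one within 1 kb of the RefSeq start. H3K4me3 was listed at the start in control for 16 of 19 genes with the element and 11 of 11 without it, against 57.3% and 68.5% of all genes. Pol II was listed in control for 10 of 19 with the element and 11 of 11 without, against 48.3% and 59.9% of all genes. In knockdown it was listed for 12 of 19 and 10 of 11, against 49.3% and 62%. With 19 and 11 genes these counts are a description, and the split rests on the exact letters of the element. RSAD2, RIGI, OAS1, XAF1, IFI35 and TRIM25, counted as without it, hold GAAA half-sites 1 base apart. With 1 mismatch allowed, 28 of 30 promoters matched, against 28.1% of all promoters. PARP9, without a match, and DTX3L, with one, are counted by the same peaks.

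Interferon response promoters held few CpG dinucleotides yet carried H3K4me3. The median was 10.5 CpG per 300-base promoter, against 22 for all genes. IFI44 and IFI44L held 0, IFI16 and OAS1 held 1, BST2 held 2 and RSAD2 held 45. Of the 8 interferon response promoters with 0 to 4 CpG, 5 had an H3K4me3 start-site peak in control, against 10.6% of 2631 promoters in that range. With 5 to 14 CpG, 9 of 9 had one, against 42.0%. For Pol II in control the counts were 3 of 8, against 10%, and 8 of 9, against 35.9%. At 15 to 24 CpG the order in control was the reverse for Pol II, with 6 of 9 (66.7%), against 74.1%. From 25 up it was 4 of 4, against 80.7%. In knockdown, Pol II at 15 to 24 CpG was listed at 8 of 9 (88.9%), against 76.4%. At 0 to 4 CpG in knockdown, H3K4me3 was at 4 of 8, against 10.9%, and Pol II at 2 of 8, against 10.8%. From 15 CpG up, H3K4me3 was listed in control at 9 of 9 and 4 of 4 interferon response starts, where most genes of the genome also had it. Some low-CpG genes are counted by peaks not theirs alone. PARP9 (6 CpG) and DTX3L (20 CpG) take the same peaks. Those of BST2 and IFIH1 (12 CpG) and the Pol II peak of IFI35 also lie at ends of other genes. The IFI16 H3K4me3 peak lies wholly downstream of the start, and that of IFI44 has the narrowest width, 501 bp.

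**Figure D3:**
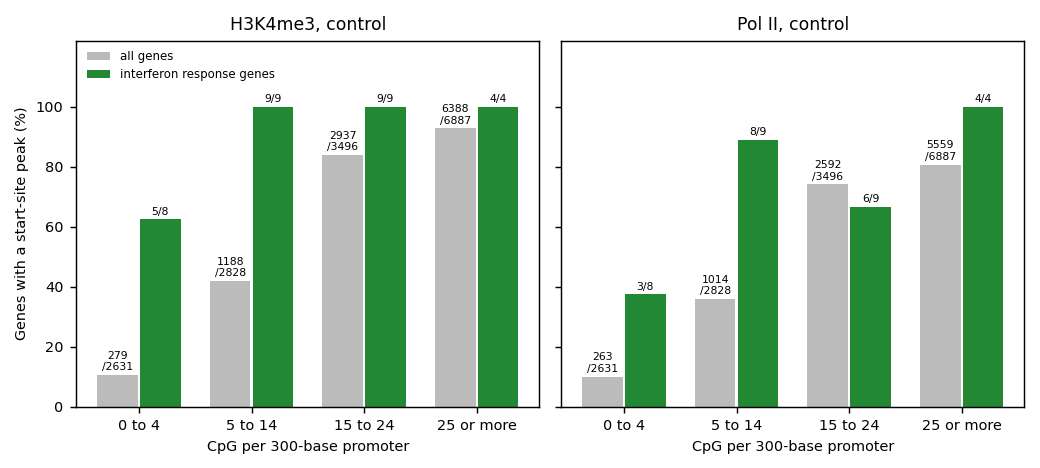
Percent of genes with a start-site peak in the control list of H3K4me3 (left) and Pol II (right), by the number of CpG in the 300-base promoter, for all genes in grey and interferon response genes in green. Numbers over the bars are genes with a peak over genes in the class, and below 15 CpG the green bars stand above the grey ones, as in the 5 of 8 against 279 of 2631 at 0 to 4 CpG.

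The sensors of double-stranded RNA and their regulators carried both marks in both conditions at 5 of 5 genes. IFIH1, which encodes the long double-stranded RNA sensor MDA5, had an H3K4me3 peak of 5766 bp in control against 5150 bp in knockdown, and Pol II peaks of 2297 and 2093 bp. The gene GCA has an end at each of these IFIH1 peaks. RIGI, which senses RNA with a 5′ triphosphate, had H3K4me3 peaks of 2502 and 2845 bp. Its Pol II peak was 813 bp wide in control, from 509 bp upstream to 303 bp downstream of the start, and 501 bp in knockdown, where it lay wholly upstream, at positions -651 to -151 from the start. The 501 bp of that peak is the narrowest width in each ChIP list. DHX58, which encodes LGP2, a relative of these sensors without a signalling domain, had Pol II peaks of 2062 and 1875 bp. KAT2A has an end at these peaks and at the H3K4me3 peaks of DHX58. EIF2AK2, which encodes the kinase PKR that halts translation, had H3K4me3 peaks of 2871 and 2983 bp. Pol II at its start spanned 1557 bp in control against 1471 bp in knockdown. Its widest gene-end Pol II peak in control, 1717 bp, lay at the 3′ end, where GPATCH11 has an end too.

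ADAR, which edits adenosine to inosine in double-stranded RNA, had a second marked site inside the gene. At its start H3K4me3 spanned 4305 bp in control against 3322 bp in knockdown, with Pol II over 2026 and 1990 bp. A further H3K4me3 peak of 4818 bp in control ran from 17427 to 22244 bp downstream, and one of 3835 bp in knockdown from 18302 to 22136 bp. Pol II spanned 3708 bp at the inner site in control and 1810 bp in knockdown. ADAR is known to use an interferon-inducible and a constitutive promoter, and which transcript each peak serves was not analysed here.

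The oligoadenylate synthetases make the second messenger that switches on RNase L. OAS1 had the widest relative difference in H3K4me3 of the set, 1530 bp in control against 635 bp in knockdown, a log2 ratio of -1.27. With peaks taken within 5 kb of a gene end the value was -0.17, but the peaks taken there are those at the OAS3 start. It therefore does not compare the peaks of OAS1 itself. The control peak of OAS1 ran from 436 bp upstream to 1093 bp downstream of the start, and the knockdown peak from 40 to 674 bp downstream. Its Pol II peak was 823 bp in control against 1186 bp in knockdown, so the marks differed in opposite directions there. OAS2 had H3K4me3 peaks of 3514 and 2748 bp and Pol II peaks of 1263 and 1016 bp.

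OAS3 carried H3K4me3 in both conditions, 2563 bp in control against 2275 bp in knockdown, with Pol II listed in knockdown alone. That Pol II peak (GRCh38.p5, chr12:112938200-112939094) was 895 bp wide and ran from 274 bp upstream to 620 bp downstream of the start, over the ISRE match that ends the OAS3 window printed above. The nearest control Pol II peak lay 30950 bp from it. OASL, a catalytically inactive member that enhances RIG-I signalling, had a Pol II peak of 815 bp in knockdown alone (GRCh38.p5, chr12:121038374-121039188) at its upper end. That peak lay inside H3K4me3 peaks of 1411 bp in control against 1629 bp in knockdown, and the nearest control Pol II peak was 56851 bp away.

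The IFIT genes, whose products bind viral RNA that lacks host cap marks, lie close together on chromosome 10 and differed in Pol II. IFIT1 had H3K4me3 peaks of 1730 bp in control against 1452 bp in knockdown and no Pol II peak at a gene end in either list. IFIT3, which stabilises IFIT1, had H3K4me3 peaks of 1664 and 1019 bp, a log2 ratio of -0.71, and again no Pol II peak. The nearest Pol II peak to IFIT3 lay 25530 bp away in control and 25932 bp in knockdown. IFIT2 had Pol II peaks of 890 bp in control against 501 bp in knockdown. IFIT5 had H3K4me3 peaks of 2646 and 2962 bp and a Pol II peak of 1078 bp in knockdown alone (GRCh38.p5, chr10:89414174-89415251), from 394 bp upstream to 683 bp downstream of its start. The IFIT5 peak lies at an end of LIPA too, and the lists do not assign it to either gene. The nearest control Pol II peak was 111707 bp away.

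ISG15, a ubiquitin-like protein, is joined to its targets by HERC5 and removed by USP18. ISG15 carried both marks, with H3K4me3 over 2627 bp in control against 2709 bp in knockdown and Pol II over 1907 and 2535 bp. Pol II peaks covered 79.0% of the short ISG15 gene in control and 100% in knockdown. HERC5 had H3K4me3 peaks of 3367 and 2780 bp and no Pol II peak, the nearest lying 16493 bp away in control and 16655 bp in knockdown. It is the widest H3K4me3 peak among the genes without Pol II in either list. USP18 had H3K4me3 peaks of 2495 and 2242 bp and Pol II peaks of 896 and 2066 bp, a log2 ratio of 1.21 towards knockdown. USP18 has a close copy, USP41, and how reads shared by such copies were placed is not given in the sources used here.

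**Figure D4:**
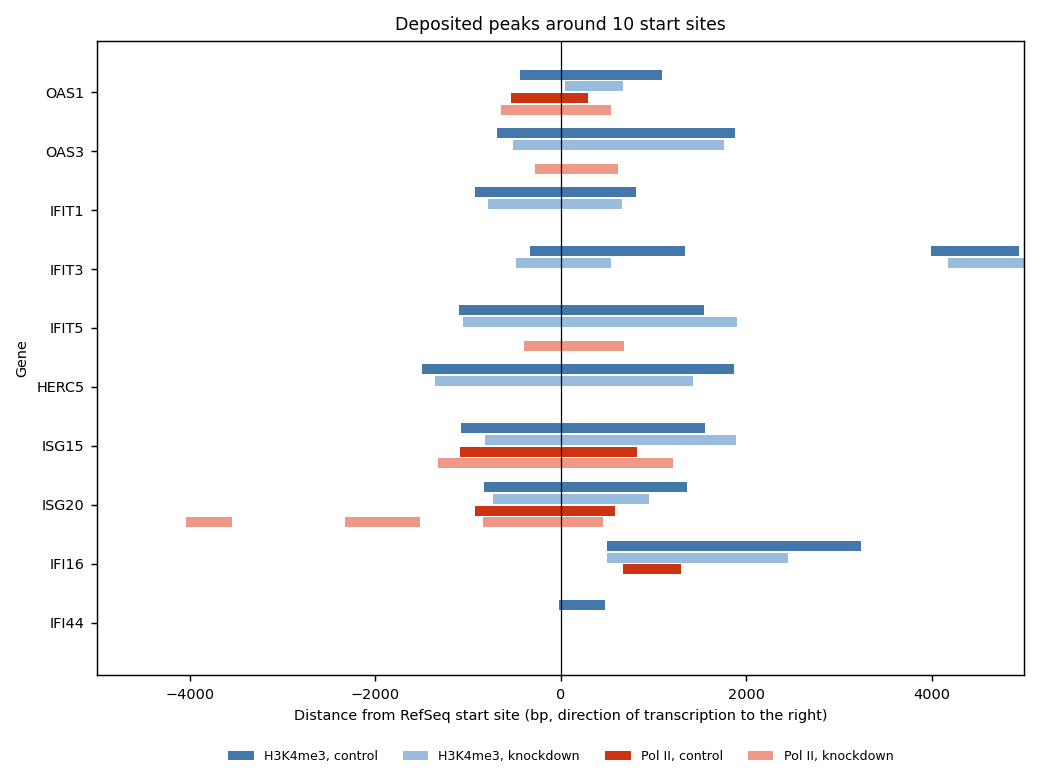
Deposited peaks around the RefSeq start sites of 10 interferon response genes, in bp from the start with transcription to the right, with 1 row of bars per list. OAS3 and IFIT5 have a Pol II bar for knockdown alone, IFIT1, IFIT3 and HERC5 have H3K4me3 bars and none for Pol II, and at IFI44 the 501 bp H3K4me3 bar is that of control.

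Among the GTPases, MX1 and MX2 carried both marks in both conditions, and the guanylate-binding genes GBP1 and GBP2 did not. MX1, an inhibitor of influenza virus, had H3K4me3 peaks of 1438 bp in control against 1777 bp in knockdown and Pol II peaks of 787 and 1021 bp. MX2, an inhibitor of HIV, had H3K4me3 peaks of 1979 and 2123 bp and Pol II peaks of 2191 and 1526 bp. GBP1 had no peak at a gene end in any of the 4 lists, and its nearest H3K4me3 peak lay 28796 bp away in control and 29165 bp in knockdown. GBP2 had narrow H3K4me3 peaks of 1138 and 1426 bp and a Pol II peak of 670 bp in control alone (GRCh38.p5, chr1:89125924-89126593).

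The restriction factors and nucleic acid enzymes held some of the wider peaks of the set. BST2, which tethers budding virions and is also called tetherin, had H3K4me3 peaks of 5626 bp in control against 5504 bp in knockdown, which covered 100% and 89.5% of the short gene. Its Pol II peak was 2481 bp in control against 4532 bp in knockdown, a log2 ratio of 0.87, and MVB12A has an end in the same place. SAMHD1, which removes the nucleotides needed for reverse transcription, had H3K4me3 peaks of 5138 and 5147 bp. Pol II at its start spanned 4723 bp in control against 4980 bp in knockdown, and at its 3′ end 4154 and 5735 bp. RSAD2, which encodes viperin, had H3K4me3 peaks of 3313 and 2803 bp and Pol II peaks of 1474 and 1450 bp, shared with the neighbouring CMPK2.

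ISG20, an RNA exonuclease, shows how the choice of gene end sets the class. By the ends of its RefSeq span it had no H3K4me3 peak and a 501 bp Pol II peak in knockdown alone (GRCh38.p5, chr15:88634969-88635469). That peak lay at positions -4047 to -3547 from the start that RefSeq's promoter table gives. At that start H3K4me3 spanned 2188 bp in control against 1690 bp in knockdown, and Pol II spanned 1509 and 1297 bp, so both marks were in both lists. IFI16, a sensor of DNA, is a similar case with no peak at its span's ends. At its start H3K4me3 spanned 2738 bp in control against 1952 bp in knockdown, and Pol II spanned 626 bp in control alone (GRCh38.p5, chr1:159009665-159010290).

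The TRIM and nuclear body genes carried H3K4me3 in both conditions at 5 of 5 genes. TRIM25, the ubiquitin ligase that acts on RIG-I, had H3K4me3 peaks of 6932 bp in control against 6901 bp in knockdown and Pol II peaks of 4250 and 5445 bp. TRIM5, which blocks retroviral capsids, had Pol II peaks of 1857 and 1874 bp. TRIM22 had H3K4me3 peaks of 1095 and 2079 bp, a log2 ratio of 0.92, and no Pol II peak in either list. With peaks taken within 5 kb the value was -0.08, where the control peak taken is the 2197 bp one at the TRIM5 start. PML, which builds nuclear bodies, had the widest H3K4me3 peaks of the set, 8551 and 7638 bp. Its Pol II values were 1021 bp in control against 4119 bp in knockdown, a log2 ratio of 2.01. The ratio was 1.24 with peaks taken within 2 or 5 kb and 1.17 with the widths of all gene-end peaks summed. The knockdown peak (GRCh38.p5, chr15:73991573-73995691) overlaps a pair of control peaks of 1746 and 1021 bp that were listed apart, and STOML1 ends there too. SP100, another nuclear body protein, had Pol II peaks of 1222 and 1047 bp.

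PARP9 and DTX3L, which form a complex that modifies proteins in the interferon response, are read from a shared promoter region. Both take their values from the same peaks, with H3K4me3 over 3774 bp in control against 3563 bp in knockdown and Pol II over 1432 and 1542 bp. PARP14, a neighbour on chromosome 3, had H3K4me3 peaks of 4752 and 3999 bp and Pol II peaks of 2836 and 2015 bp.

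The IFI genes held 3 of the 5 genes without H3K4me3 at a gene end in either list. IFI44L and IFI27 had no peak of either mark, and IFI16 is described above. IFI44 had a 501 bp H3K4me3 peak in control alone (GRCh38.p5, chr1:78649767-78650267), from 22 bp upstream to 478 bp downstream of the start. The nearest Pol II peak to IFI44 lay 643742 bp away in control and 641124 bp in knockdown. IFI6, a mitochondrial and endoplasmic reticulum protein, had H3K4me3 peaks of 2346 and 2166 bp and Pol II peaks of 1113 and 1175 bp. IFI35 had H3K4me3 peaks of 2104 and 2253 bp, and its Pol II peaks of 12507 and 12888 bp also cover ends of RUNDC1 and RPL27.

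XAF1, a proapoptotic protein, had H3K4me3 peaks of 3097 bp in control against 2958 bp in knockdown. The widest Pol II peaks at its ends were 1228 and 2996 bp, a log2 ratio of 1.29, but these lie at the 3′ end, near FBXO39. At the start of XAF1, Pol II spanned 966 bp in control against 765 bp in knockdown, the opposite order. Of the apolipoprotein L genes, APOL3 had an 838 bp H3K4me3 peak in control alone (GRCh38.p5, chr22:36164660-36165497), with the nearest knockdown peak, of 501 bp, 3828 bp away inside the gene. APOL6 had H3K4me3 peaks of 2980 and 3386 bp, with Pol II at the same end over 1407 and 2498 bp. Its widest gene-end Pol II peaks lay at the opposite end, 1783 and 2548 bp (log2 ratio 0.52), and these are the ones counted below.

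Widths at least 1.5-fold apart were few for H3K4me3 and near the genome's share for Pol II. Of the 34 genes with H3K4me3 in both lists, 1 was wider in knockdown (TRIM22), against 1.96% of all genes, and 2 were narrower (OAS1 and IFIT3), against 2.22%. Of the 26 with Pol II in both lists, 4 were wider (PML, XAF1, USP18 and BST2), against 17.4%, and 2 were narrower (IFIT2 and RIGI), against 9.90%. The median log2 ratio of knockdown to control was -0.05 for H3K4me3, against -0.04 for all genes, and 0.06 for Pol II, against 0.08. For EIF2AK2 (-0.22) and SAMHD1 (0.28) the widest Pol II peak lay at opposite gene ends in control and knockdown. Their Pol II ratios therefore do not compare the same site. The peaks themselves were narrow for the genome. The median H3K4me3 width was 2636.5 bp in control and 2791.5 bp in knockdown, against 3886 and 3747 bp for all genes, and the median Pol II width 1595.5 and 1874.5 bp, against 2326 and 2479 bp.

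H3K4me3 without Pol II stood above the genome's share in control, though not in every class of peak width, and near it in knockdown. It stood at 9 of 36 genes in control (25%), against 15.3% of all genes with H3K4me3. These were IFI44, HERC5, IFIT3, IFIT1, IFIT5, TRIM22, OAS3, OASL and APOL3. In knockdown it stood at 5 of 34 (14.7%), against 12.9%, and these were GBP2, HERC5, IFIT3, IFIT1 and TRIM22. Peak width moved with this share, and its part in it was not tested. In control, among H3K4me3 peaks up to 2000 bp wide, 5 of 10 interferon response genes and 62.0% of all genes had no Pol II peak. Between 2000 and 4000 bp it was 4 of 19 (21.1%), against 17.4%, and above 4000 bp 0 of 7, against 3.98%. In knockdown the same classes gave 3 of 7 (42.9%), against 53.8%, 2 of 22 (9.09%), against 13.6%, and 0 of 5, against 2.41%.

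QKI5 CLIP peaks carried the symbol of 3 interferon response genes in control and 0 in knockdown. The 3 of 41 genes in control (7.32%, exact Clopper-Pearson 95% interval 1.54 to 19.9, which covers counting error only) compare with 13.9% of all protein-coding genes, and the 0 of 41 in knockdown with 1.82%. The control list holds 7300 peaks and the knockdown list 649, so the members' 0 was read from a much shorter list. Of members longer than 50 kb, 2 of 9 had a CLIP peak (22.2%), against 25.8% of all genes of that length, of those between 10 and 50 kb, 1 of 26 (3.85%), against 11.6%, and of those up to 10 kb, 0 of 6, against 3.95%. ADAR had 1 peak (GRCh38.p5, chr1:154624447-154624559, minus strand) with 8 reads at a log2 enrichment of 5.92 (-log10 p 8.07). It lay 3438 bp from the 5′ end of the gene and 530 bp from the control H3K4me3 peak at the start. RIGI had a pair of adjoining peaks (GRCh38.p5, chr9:32458367-32458389 and chr9:32458390-32458438, minus strand), each with 8 reads at a log2 enrichment of 6.92 (-log10 p 8.74). They lay 95.6% of the way along the gene, 3065 bp from its 3′ end at the nearest. IFI16 had a pair of adjoining peaks (GRCh38.p5, chr1:159040443-159040446 and chr1:159040447-159040465, plus strand), each with 7 reads at a log2 enrichment of 6.73 (-log10 p 7.58), 73.3% of the way along the gene. The median in the control list is 9 reads, so these peaks rest on few reads. No CLIP peak of the 3 genes overlapped an H3K4me3 or Pol II peak of the control lists. Exon and intron annotation was not analysed here.

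Genes of interferon induction and signalling mostly carried both marks. A list of 25 such genes covers interferons, receptors, kinases, STAT and IRF factors and negative regulators. It also holds the sensing and adaptor genes CGAS, STING1, MAVS and TICAM1. H3K4me3 stood in both peak lists at 21 of the 25 and in neither at 4, and Pol II in both at 20. Over all protein-coding genes the shares in both lists were 66.6% for H3K4me3 and 57.6% for Pol II. The 4 without either mark were the ligand genes IFNB1, IFNG and IFNL1 and the receptor gene IFNLR1. IKBKE, a kinase upstream of IRF3, had a Pol II peak of 971 bp in control alone. In control, 0 of the 21 signalling genes with H3K4me3 lacked Pol II, where 9 of 36 interferon response genes and 15.3% of all genes did. The control H3K4me3 peaks of the signalling genes in both lists were wider, with a median of 4132 bp and a minimum of 2986 bp. Among all genes with control H3K4me3 peaks up to 2000 bp, 62.0% lacked Pol II, so the 2 sets differ in width range. Genes of this list with a QKI5 CLIP peak included JAK1, IRF3, SOCS3 and IL10RB in control, and 1 gene had one in knockdown, IFNAR2, a subunit of the type I receptor. Among 38 other interferon-induced genes, H3K4me3 stood in both lists at 33, and Pol II in both at 26, in control alone at 1 (GBP4) and in knockdown alone at 2 (IFITM1 and SAMD9L). In control, 6 of the 33 with H3K4me3 (18.2%) lacked Pol II, and the median Pol II width of those with it in both lists was 1605.5 bp, close to that of the interferon response genes. CLIP peaks named 4 of these 38 in control, RNF213, SP110, TDRD7 and ZC3HAV1.

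Each of the 4 ChIP lists held a gene-end peak at 7 of 10 monocytic and myeloid marker genes. Over all protein-coding genes the H3K4me3 shares were 67.2% in control and 67.4% in knockdown, and the Pol II shares 59.6% and 61.6%. The marker count is near those shares, so it does not identify the cells. FCGR1A and MPO had no peak in any list. The markers with a peak are not the same 7 throughout, since ITGAM had Pol II in control alone and CSF1R in knockdown alone. Of 7 genes listed as markers of other cell types, 2 had H3K4me3 in both conditions (COL1A1 and PECAM1), and 2 in control and 1 in knockdown had Pol II. PECAM1 is not exclusive to those other cell types. The 4 ChIP lists hold 21953 H3K4me3 peaks in control and 21358 in knockdown, and 33370 and 35094 Pol II peaks. The longer Pol II list in knockdown goes with the larger share of genes with Pol II there alone, and its part in the values above was not tested.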

How the data were processed

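H3K4me3 and Pol II ChIP-seq and QKI5 CLIP-seq of THP-1 cells were read from 6 peak lists, each made by the authors from 2 samples of 1 condition per the series' design text. HOMER and the build GRCh38.p5 are named, with no role, in the submitters' processing notes. The aligner, the peak caller, its settings, the use of inputs and the depth per sample were not given in the sources used here. The score that the authors deposited with each ChIP peak is 1 throughout, so peaks were described by width. The deposited CLIP lists have no header: from the values, the authors' columns were read as -log10 p, log2 enrichment and a number of reads per peak. These are the authors' values and were used only within their list.

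Genes, spans and promoters came from RefSeq tables (GRCh38.p14), a later patch of the files' build, and distances from starts were measured across the 2 patches. Peaks were joined to genes with an overlap of at least 1 bp, using Python 3.11.15, pandas 2.3.3, numpy 2.4.6 and scipy 1.17.1, and figures were drawn with matplotlib 3.10.9. A width ratio of 1.5 was counted as wider or narrower, and the same counts over all genes are given beside the members. The joins were tested on simulated peaks. By the rule for named genes, all 41 members are accounted for by role, with widths for those that differ in class or by 1.5 times between conditions, have a CLIP peak, are among the 5 widest of a mark, lack H3K4me3 or share a peak. Genes of the other lists are named where their class differs or they have a CLIP peak, and those without H3K4me3 were named after their values were seen. The members and gene lists were chosen with earlier results of these data known. No test between conditions was possible. Alternatives were other distances (500 bp, 2 and 5 kb), start sites alone, peaks wider than 501 bp, summed widths, a ratio of 2, stricter CLIP thresholds and other motif forms. Some results on single genes are not reported here.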

Additional observations from a re-analysis of the deposited data

How the results depend on the processing

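No paired analysis was possible because each deposited list pools both replicates, so no replicate could be left out either. With only pooled lists, differences between conditions cannot be set against replicate spread. H3K4me3 in control alone (2 genes) came to 1 with a distance of 500 bp, any peak over the gene, peaks wider than 501 bp, or start sites. H3K4me3 wider in knockdown (1) came to 0, and narrower (2) came to 1, with 5 kb or a ratio of 2, and wider came to 0 at start sites. Pol II in knockdown alone (4) came to 2 with 5 kb, at start sites (OAS3 and IFIT5) or when no control peak within 5 kb was allowed. Pol II in control alone (1) came to 2 with any peak over the gene and to 3 with peaks wider than 501 bp. Pol II wider (4) came to 7 with summed widths and to 1 at start sites, and narrower (2) to 0 with peaks wider than 501 bp or a ratio of 2 and to 1 at start sites. CLIP genes (3) and peaks (5) in control both came to 0 with a -log10 p of at least 10, with at least 10 reads, or with the control list limited to the length of the knockdown list, and merging adjoining peaks gave 3 peaks. Within 1 kb of H3K4me3, 1 CLIP gene (ADAR) was counted. Half-sites 1 base apart, chosen after seeing the data, were in 10 promoters, against 19. The log2 width ratio turned sign for XAF1 Pol II at the start (-0.34). TRIM22 H3K4me3 came to -0.08 with 5 kb, where the control peak taken is that at the TRIM5 start. OAS1 H3K4me3 came to -0.17 with 5 kb, where the peaks taken are those at the OAS3 start. So neither 5 kb value compares the gene's own peaks, and the 5 kb counts of wider and narrower H3K4me3 include them. PML Pol II came to 1.24 with 2 or 5 kb and 1.17 with summed widths. The cause of the remaining shifts was not tested.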

Other observations

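SAMHD1 was the interferon response gene with the most Pol II peaks along its body, 15 in control and 19 in knockdown. They covered 27638 bp in control (44.6% of the gene) and 20295 bp in knockdown (32.8%), so more peaks covered less of it. TRIM25 had 7 peaks in control and 8 in knockdown over 36.6% and 40.8% of the gene. BST2 was covered by Pol II peaks over 41.2% in control and 75.6% in knockdown. These genes were picked after their values were seen.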
